A study of Mus musculus with 20 samples.

Results

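The transcripts described here encode the Golgi enzymes that trim mannose from N-glycans and start their branches. The members are the 8 mouse genes Man1a, Man1a2, Man1c1, Man2a1, Man2a2, Mgat1, Mgat2 and Mgat5, found by symbol among the 25869 gene identifiers of the deposited expression table. All 8 had a row, and all 8 passed the filter on low values in every comparison. The set was chosen because Man1a led the genes with lower levels in IgM-negative than in IgM-positive lymphoma lines, so values of that contrast are given as a description, with no test.

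N-glycans are built as a mannose-rich precursor in the endoplasmic reticulum, transferred to asparagine residues of new proteins, and then remodelled in the Golgi. Man1a, Man1a2 and Man1c1 encode class I mannosidases, which remove the outer mannose residues. Mgat1 then adds the N-acetylglucosamine that opens the complex-type pathway, the class II mannosidases Man2a1 and Man2a2 remove further mannose, Mgat2 starts another branch, and Mgat5 adds a branch known for its part in the surface retention of glycoprotein receptors on lymphocytes. Surface IgM and other receptors of B cells are N-glycosylated proteins.

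The study asked whether CRISPR activation of Bcl-2 in Eµ-Myc cells gives a model of aggressive lymphoma, and sequenced poly(A)-selected RNA from fibroblasts, lymphoma cells and leukaemia cells. The 10 fibroblast libraries came from mouse embryonic fibroblast (MEF) lines. They comprised 2 wild-type (WT) libraries, 2 dCas9a-SAM KI/+ libraries with no sgRNA, 2 with a non-targeting sgRNA (sgNT) and 4 with sgBcl-2. Each of the last 3 groups held the same pair of MEF lines, and the sgBcl-2 group held 2 libraries of each line. The dCas9a-SAM knock-in expresses a dead Cas9 and its activator proteins from a CAG promoter at Rosa26. The 6 lymphoma lines each came from a separate mouse that had received Eµ-Myc/dCas9a-SAM KI/+ fetal liver cells carrying sgBcl-2 after lethal irradiation. Their labels gave 4 as IgM positive and 2 as IgM negative. In what follows they are numbered as IgM-positive lines 1 to 4 and IgM-negative lines 1 and 2. The 2 primary tumours, both IgM positive, came from the mice of IgM-positive lines 1 and 2, but their labels disagree on which tumour came from which mouse. The 2 preB-ALL libraries carried BCR-ABL1 (p190) with the labels CreERLSLErg and RagCreErg, and were sequenced in another run than the rest, so run and tumour type cannot be told apart there.

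Depth, recovered from the step size of the deposited values, ran from 12474885 to 26678417 reads per library, with a median of 23229458. Bcl2, the targeted gene, was at 46.8 to 71.8 CPM (reads of a gene per 1000000 reads of the library) in the sgBcl-2 MEFs, at 13.4 and 13.7 CPM in the sgNT MEFs and at 99.4 to 165 CPM in the lymphoma lines. The heavy chain transcript Ighm was at 1178 and 1441 CPM in the IgM-negative lines and at 1462 to 2711 CPM in the IgM-positive lines, so the label IgM negative does not mark a loss of this transcript. Both preB-ALL libraries have values of 0 for each of the 15 mitochondrial genes. In those 2 libraries 10 of 12 fibroblast markers were at 1 CPM or more, and their summed level was 1385 to 2982 CPM against 2.07 to 34.4 CPM in the IgM-positive lines. Of the WT MEFs, the second library stood apart, with a summed level of 8 myeloid markers of 236 CPM against 6.63 CPM in the first. In RNA from whole samples, fewer cells of a type and less RNA per cell cannot be told apart.

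The Man1a gene lies on the minus strand at chr10:53904785-54076616 of GRCm38. Its promoter is shown first because the gene was almost silent in 2 lymphoma lines, that of Man1c1 because this class I relative rose together with Man1a in transduced fibroblasts, and that of Mgat5 because it had the lowest level of the 8 in fibroblasts. Each sequence is the 250 bases before a RefSeq transcript start, 5′ to 3′ on the gene's own strand, from GRCm38.p6, with matches to the GC box GGGCGG and the CCAAT box on either strand in capitals. The windows are chr10:54075738-54075987 on the minus strand for Man1a, chr4:134704291-134704540 on the minus strand for Man1c1 and chr1:127204736-127204985 on the plus strand for Mgat5. The transcript start used for Man1a lies inside its gene interval, so its whole window does too, and that of Mgat5 runs past the outer start of its interval at 127204919.
Man1a: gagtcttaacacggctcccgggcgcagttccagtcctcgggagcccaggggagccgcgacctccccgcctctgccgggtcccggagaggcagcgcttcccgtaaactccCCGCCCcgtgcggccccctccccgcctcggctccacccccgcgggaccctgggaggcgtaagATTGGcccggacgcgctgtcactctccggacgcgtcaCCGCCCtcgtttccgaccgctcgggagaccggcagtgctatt
Man1c1: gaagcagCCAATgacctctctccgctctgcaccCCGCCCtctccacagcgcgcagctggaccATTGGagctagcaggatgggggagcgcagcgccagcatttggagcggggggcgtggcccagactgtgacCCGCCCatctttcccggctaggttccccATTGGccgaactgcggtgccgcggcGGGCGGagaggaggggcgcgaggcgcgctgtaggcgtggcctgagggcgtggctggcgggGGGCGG
Mgat5: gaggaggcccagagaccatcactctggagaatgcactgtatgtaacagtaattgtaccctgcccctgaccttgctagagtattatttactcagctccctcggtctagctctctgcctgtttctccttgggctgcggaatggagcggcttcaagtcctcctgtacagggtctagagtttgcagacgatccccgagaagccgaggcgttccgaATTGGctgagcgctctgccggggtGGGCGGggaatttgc
The Man1a window holds 31 CpG dinucleotides and 72.4% G or C, that of Man1c1 holds 24 and 71.6%, and that of Mgat5 holds 11 and 56.0%. The median over all 32851 windows of the same length is 6 CpG dinucleotides and 52.4% G or C. The RefSeq table had windows for 6 of the 8 members, 8 windows in all. A GC box was found in 7 of these 8 windows, against 32.7% of all windows, and a CCAAT box in 4, against 33.8%. The E-box CACGTG, the letters that MYC and MAX bind, was found in 0 of the 8 windows and in 6.02% of all, and TATAAA in 0 of 8 and in 12.4%. CACGTG reads the same on both strands, the other 3 were searched on both, and overlapping matches of a motif were each counted. These are matches of letters only, and no binding or methylation was measured here.

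The members fell into an order of levels that differed between lymphoma lines and fibroblasts. On the scale of CPM per kb of exon, Mgat2 had the highest mean of the members in the 6 lymphoma lines (45.5 ± 10.4, SD, n = 6). Man2a2 (42.7 ± 8.39) and Mgat1 (23.4 ± 7.53) followed. The ranges of these genes overlapped, and Man2a2 lay above Mgat2 in IgM-positive line 4 and IgM-negative line 1. Man2a1 (16.7 ± 2.11) and Man1a2 (15.9 ± 2.08) came next and overlapped each other and Mgat1. Mgat5 (1.61 ± 0.36) had the lowest mean, with Man1a below it in the IgM-negative lines and Man1c1 below it in IgM-positive line 4. In the 4 sgBcl-2 MEF libraries, Mgat2 (54.6 ± 6.38 CPM per kb), Mgat1 (54.1 ± 1.01) and Man2a1 (49.2 ± 3.01) shared the top. Across all 20 libraries, Man1a2 and Mgat2 ranged least, from 70.7 to 157 CPM and from 59.5 to 163 CPM. Man1c1 ranged from 1.20 CPM in a preB-ALL library to 88.8 CPM in a WT MEF library, and Mgat5 from 3.42 CPM in a tumour to 17.7 CPM in IgM-positive line 2.

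**Figure D1:**
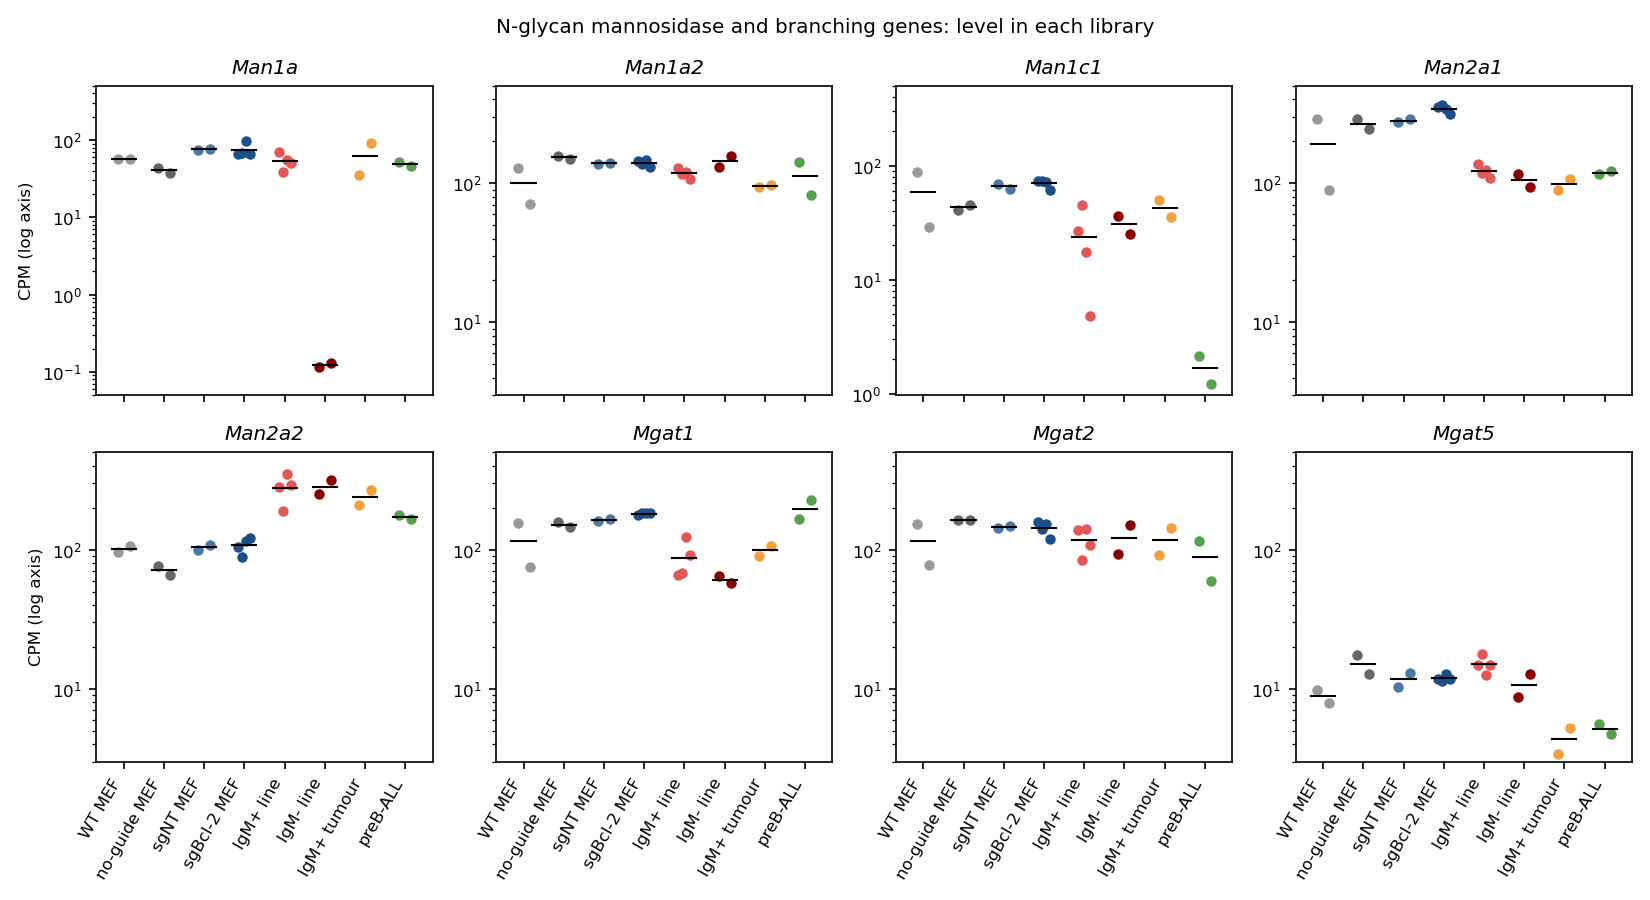
Level of each of the 8 genes in every library, in CPM on a log axis whose range differs between panels, by group; points are libraries and bars are group means. Man1a sits near 0.12 CPM in both IgM-negative lines and between 34.9 and 97.0 CPM in the other 18 libraries, and Man1c1 is lowest in the 2 preB-ALL libraries.

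Man1a was close to absent in the IgM-negative lines and present everywhere else. It was at 0.117 CPM in IgM-negative line 1 and at 0.129 CPM in IgM-negative line 2, which is 3 reads in each library. In IgM-positive lines 1 to 4 it was at 69.5, 38.9, 54.6 and 51.0 CPM. The 4 positive lines lie far above the 2 negative ones, with no overlap. Pooled over libraries, 6 reads stood against 5217, a level 434-fold higher in the IgM-positive lines with a 95% counting interval of 199 to 1183 (from exact Clopper-Pearson bounds), which covers counting error only. Outside the lines, the 2 tumours had 34.9 and 90.6 CPM, the preB-ALL libraries 52.6 and 45.8 CPM, and the 10 MEF libraries between 37.6 and 97.0 CPM. The order of the group means was sgNT MEF (75.9 CPM), sgBcl-2 MEF (74.1), tumours (62.7), WT MEF (57.3), IgM-positive lines (53.5), preB-ALL (49.2), no-guide MEF (40.7) and IgM-negative lines (0.123), in which each of the first 5 groups overlapped the next. The fitted log2 difference between IgM-negative and IgM-positive lines was -7.84 (SE 0.31, n = 2 and 4), and its size depends on the pseudocount of 0.1 CPM. Other measures also separated these classes without overlap. The summed level of 6 markers of the pre-B stage was 66.8 to 85.2 CPM in the IgM-negative lines, where Rag2 was at 0 in both, and 391 to 1044 CPM in the IgM-positive lines. That of 9 B lineage markers was 1446 to 1713 CPM against 2132 to 2303 CPM, and the mitochondrial share of reads was 7.16% to 7.18% against 5.30% to 6.73%. Their part in the differences between the IgM classes given here was not tested.

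The tested genes within 1 Mb of the start of Man1a, all past its 3′ end, overlapped between the IgM classes. Within 1 Mb of the outer 5′ end of the gene interval at 54076616, measured to the nearest edge of each gene, 10 genes had a row in the table and 4 passed the filter on low values. These 4 lie between -697 and -447 kb of that end, past the 3′ end of Man1a. No gene nearer to it, or upstream within 1 Mb, was tested. Mcm9, a helicase of the MCM family, was at 19.8 and 20.3 CPM in the IgM-negative lines and at 13.7 to 23.7 CPM in the IgM-positive lines. The histone chaperone Asf1a was at 56.2 and 58.8 CPM in the IgM-negative lines and at 56.9 to 99.2 CPM in the positive ones. Cep85l was at 5.39 CPM in IgM-negative line 1 and at 0 in line 2, and at 0.341 to 6.97 CPM in the positive lines. Its log2 difference of -0.93 depends on that 0 and the pseudocount, as the class means were 2.70 and 2.65 CPM. Tmem229b-ps was at 0.742 and 0.905 CPM against 0.525 to 1.09 CPM. All 4 neighbours tested overlapped between the classes, where 22.6% of all genes tested did not overlap. Genes this few and this far away cannot describe the locus around Man1a. Gm16998, whose interval spans this outer end, had 0 reads in both IgM-negative lines and 0.0750 to 0.0996 CPM in the IgM-positive lines. In a single library 0 reads allow up to 0.129 CPM, and the difference was not tested over the libraries together.

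The genes whose pattern over the 8 group means was most like that of Man1a were found by the root mean square difference of log2 levels, each centred on its own mean, among 16482 other genes. They were Snx10 (0.53), Prelid2 (0.59), Mta3 (0.72), Mier2 (0.73) and Eci2 (0.74). Snx10, a sorting nexin, was at 0.0781 and 0.129 CPM in the IgM-negative lines and at 8.39 to 20.7 CPM in the IgM-positive lines. Prelid2 had 0 reads in both IgM-negative lines and 2.31 to 14.3 CPM in the positive ones. Since the group means include those of the IgM classes, this likeness rests largely on the loss in the IgM-negative lines. Of the other members, Mgat1 was nearest to Man1a, at rank 1978 with a difference of 2.31, and Man1c1 the farthest, at rank 12809.

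None of the other 7 members came near the loss of Man1a, and their log2 differences ran from -0.45 to 0.81. Man1a2, another class I mannosidase, was at 131 and 156 CPM in the IgM-negative lines against 107.9, 117, 120 and 130 CPM in the IgM-positive lines, a log2 difference of 0.33 with no overlap. The 2 negative lines were the highest of the 6, though by little over IgM-positive line 1. Man1c1 was at 36.2 and 25.2 CPM in the negative lines, inside the range of 4.78 to 45.2 CPM in the positive ones. Mgat1 was at 64.5 and 57.1 CPM in the negative lines and at 65.9, 67.5, 124 and 91.4 CPM in the positive lines, a log2 difference of -0.42 with no overlap but with a gap of little more than 1 CPM. For Man2a1, Man2a2, Mgat2 and Mgat5 the classes overlapped, with log2 differences of -0.16, 0.12, 0.10 and -0.45. With a library left out these ranged from -0.33 to 0.028 for Man2a1, from -0.078 to 0.27 for Man2a2 and from -0.21 to 0.43 for Mgat2, each changing sign. That of Mgat5 ranged from -0.68 to -0.19. Under the same leave-outs Man1a2 ranged from 0.24 to 0.44, Man1c1 from 0.19 to 1.23 and Mgat1 from -0.54 to -0.22. In all, 1 of 8 members lay above and 2 of 8 below without overlap, beside 7.82% and 14.8% of all 12386 genes tested. As the members were chosen on this contrast, nothing is read from those counts.

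Summed per kb, transcripts of the 3 class I mannosidases were at 24.1 and 25.0 CPM per kb in the IgM-negative lines and at 35.4, 31.8, 29.4 and 24.4 CPM per kb in IgM-positive lines 1 to 4. IgM-positive line 4 thus had as low a sum as the lines without Man1a, and the ranges overlap. The share of Man1a in that sum was 0.0941% and 0.10% in the negative lines and 23.7% to 40.5% in the positive lines. Without Man1a, the sum of Man1a2 and Man1c1 was 24.1 and 24.9 CPM per kb in the negative lines and 14.6 to 24.3 CPM per kb in the positive lines, ranges that also overlap. Man1a2 alone made up 68.1% and 78.5% of the class I sum in the negative lines and 46.0% to 55.4% in the positive ones.

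**Figure D2:**
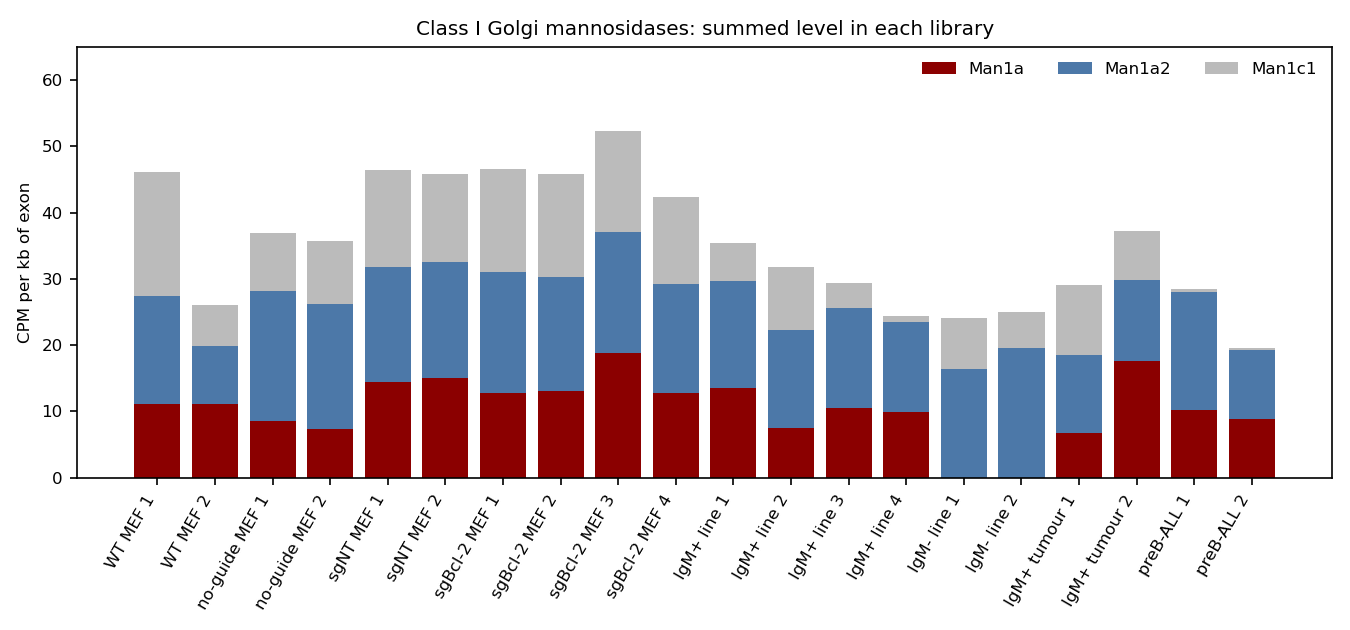
Stacked level of Man1a, Man1a2 and Man1c1 in each of the 20 libraries, in CPM per kb of exon, with libraries numbered within their group. The Man1a segment is missing by eye in IgM-negative lines 1 and 2, where the sum is 24.1 and 25.0, and the Man1c1 segment makes up 4.15% of the sum in IgM-positive line 4 and 1.59% and 1.31% in the preB-ALL libraries.

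In the wider pathway none of the 80 genes tested came near the difference of Man1a between the IgM classes. Of 87 other N-glycan genes in 9 lists, 80 were tested, 7 lay higher and 8 lower in the IgM-negative lines without overlap, beside 7.82% and 14.8% of all genes tested, and their median log2 difference was -0.0039 against -0.023 over all genes tested. The largest differences were in the list of Golgi capping enzymes. Of its 8 tested genes, 3 lay lower and 2 higher in the IgM-negative lines without overlap (median log2 difference -0.068). St6gal1, the sialyltransferase that makes the ligand of CD22 on B cells, was at 15.1 and 17.5 CPM in the IgM-negative lines and at 143, 160, 41.6 and 67.4 CPM in IgM-positive lines 1 to 4. St3gal6, another sialyltransferase, was at 0.0781 and 0.216 CPM in the negative lines and at 1.10 to 3.41 CPM in the positive ones. B3gnt2, which extends poly-N-acetyllactosamine chains, averaged 118 CPM in the negative and 199 CPM in the positive lines. Gfpt1, the entry enzyme of UDP-N-acetylglucosamine synthesis, was at 47.5 and 51.3 CPM in the negative lines and at 35.5 to 42.6 CPM in the positive lines, with no overlap. Dividing the remaining genes by role, 12 of 12 oligosaccharyltransferase genes and 14 of 14 genes of trimming in the endoplasmic reticulum were tested, of which 1 and 1 did not overlap. Without overlap were also 5 of 23 genes of precursor assembly, 1 of 4 nucleotide sugar transporters, 1 of 5 genes of UDP-N-acetylglucosamine supply and 1 of 8 COG genes, and 0 of 2 other branching genes and 0 of 4 lysosomal and cytosolic mannosidases.

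**Figure D3:**
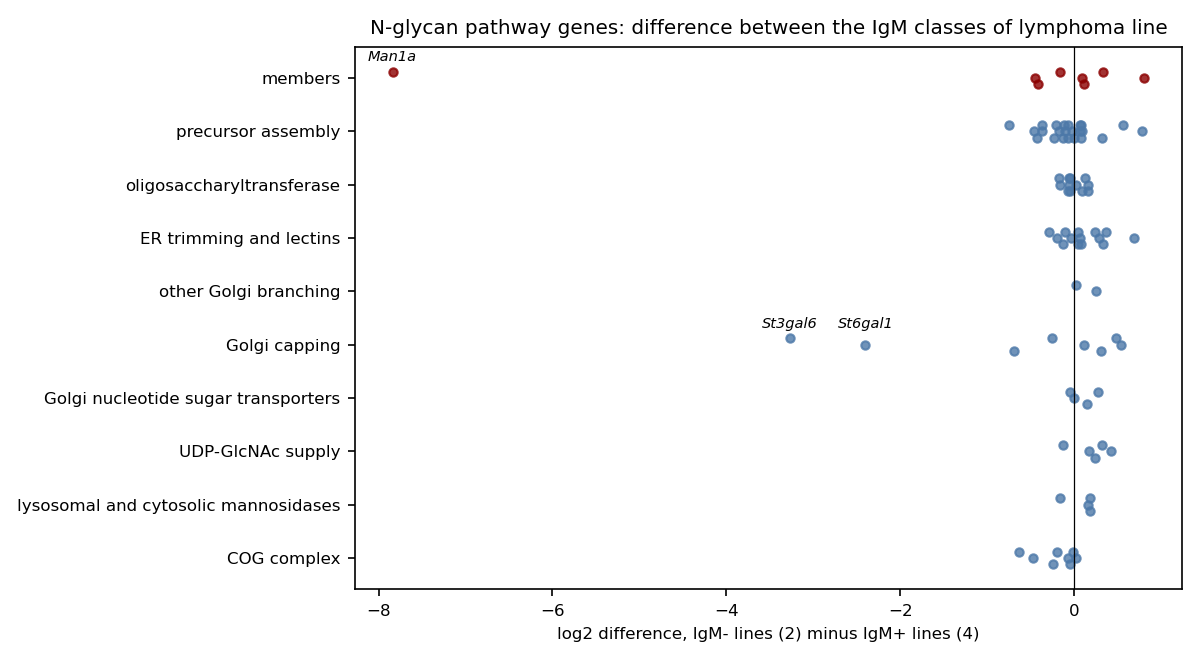
Log2 difference between the 2 IgM-negative and the 4 IgM-positive lines for the 8 members (top) and the tested genes of 9 further N-glycan lists, 1 point per gene, with no test drawn. Man1a lies at -7.84, St3gal6 at -3.27 and St6gal1 at -2.40, and most other points lie within 1 of 0.

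The lymphoma lines and preB-ALL differed in 4 of the 8 members, against 43.4% of all 13961 genes tested. Man1c1, Man2a2 and Mgat5 were higher in the lines, 3 members against 20.9% of all genes, and Mgat1 was lower, 1 member against 22.5%. Man1c1 was at 2.14 and 1.20 CPM in preB-ALL and at 4.78 CPM (lowest), 25.9 CPM (median) and 45.2 CPM (highest) in the 6 lines, a log2 difference of 3.99 (SE 0.77, adjusted p = 0.00370). Every line lay above both leukaemias, and IgM-positive line 4 was nearest to them. Mgat5 was at 5.61 and 4.73 CPM in preB-ALL and at 8.67, 13.8 and 17.7 CPM (lowest, median and highest) in the lines, a log2 difference of 1.70 (SE 0.29, adjusted p = 0.00199). Man2a2 was at 178 and 166 CPM in preB-ALL and at 189, 286 and 348 CPM in the lines, a log2 difference of 1.04 (SE 0.24, adjusted p = 0.00854). Mgat1, in contrast, was at 166 and 226 CPM in preB-ALL and at 57.1, 66.7 and 124 CPM in the lines, a log2 difference of -0.99 (SE 0.29, adjusted p = 0.0234). These 4 genes did not overlap between the groups, as did not 53.4% of all genes.

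Man1a2 (log2 difference 0.58, adjusted p = 0.0796), Man2a1 (0.32, adjusted p = 0.113) and Mgat2 (0.85, adjusted p = 0.0654) did not pass the threshold. With 1 preB-ALL library left out, the other is assumed to vary like the lines. Without the first preB-ALL library Man1a2 (0.98, adjusted p = 0.0152) and Mgat2 (1.34, adjusted p = 0.0285) passed, and Mgat2 also passed without IgM-positive line 2 (adjusted p = 0.0452). Over all fits with a library left out, Man1a2 ranged from 0.094 to 0.98 (adjusted p up to 0.792) and Mgat2 from 0.27 to 1.34 (adjusted p up to 0.635). Man1a had a log2 difference of -2.19 with an SE of 2.58 (adjusted p = 0.517) over the 6 lines. With the IgM-positive lines only it was 0.43 (adjusted p = 0.248). The fit of all 20 libraries gave -2.20 over the 6 lines. That fit models the IgM classes as separate groups, so the spread between them is left out of its error, and its call of Man1a is not read. Without the second preB-ALL library Man1c1 (log2 difference 3.51), Man2a2 (0.89) and Mgat1 (-0.87) missed the threshold but kept their direction. Mgat1 also missed it without the first (-1.20) and with the IgM-positive lines only (adjusted p = 0.0686). With the 2 tumours in place of the lines of the same mice Mgat5 (log2 difference 1.03, adjusted p = 0.256) and Mgat1 (-0.85, adjusted p = 0.0641) did not pass. Man1c1 missed the threshold with limma-voom (adjusted p = 0.0772). The part that the fibroblast transcripts of the preB-ALL libraries play in these differences was not tested.

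Of 82 other pathway genes tested between the lines and preB-ALL, 13 were higher and 12 lower in the lines, beside 20.9% and 22.5% of all genes, and their median log2 difference was -0.014 against -0.069 over all genes. Mgat3, which adds the bisecting N-acetylglucosamine, was at 6.48 and 3.29 CPM in preB-ALL and at 0 to 0.0431 CPM in the lines (log2 difference -5.12, adjusted p = 1.52e-05). B4galt1, the main Golgi galactosyltransferase, was lower in the lines (-1.45, adjusted p = 0.00225), as was Mgat4b (-1.15, adjusted p = 0.0338), which starts a further branch. Mgat4a, its relative, was higher by 0.51 (adjusted p = 0.0328). The transporter gene Slc35a3, which supplies the Golgi with UDP-N-acetylglucosamine, was higher in the lines by 1.16 (adjusted p = 0.00113), and the ER lectin gene Calr was lower (-0.86, adjusted p = 0.00268).

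Primary tumours differed from the lines of the same mice in 0 of the 8 members by limma, where 0.330% of 12719 genes passed, 0.267% higher and 0.0629% lower in the tumours. This fit was not paired by mouse, as the labels of the tumours disagree on their mice. Mgat5 came nearest. It was at 3.42 and 5.24 CPM in the tumours and at 14.8 and 17.7 CPM in IgM-positive lines 1 and 2, a log2 difference of -1.96 (SE 0.37, adjusted p = 0.0805). Both tumours lay below all 6 lines, whose lowest value was 8.67 CPM. Between these tumours and lines 57.1% of all genes did not overlap. The difference passed with all 4 IgM-positive lines (-1.81, adjusted p = 0.0214) and with DESeq2 (-1.95, adjusted p = 0.000509). Mgat1 (log2 difference 0.51, unadjusted p from limma 0.0362) was the other member below an unadjusted p of 0.05. Its tumour values of 90.5 and 107.1 CPM lay above the 65.9 and 67.5 CPM of the 2 lines. Man1a was at 34.9 and 90.6 CPM in the tumours, around the 69.5 and 38.9 CPM of the lines. In the tumours the summed level of 9 B lineage markers was 5938 to 6212 CPM against 2132 to 2303 CPM in the IgM-positive lines, that of 8 myeloid markers was 32.6 to 42.4 CPM against 5.88 to 13.3 CPM, and that of 6 T cell markers was 1.496 to 2.41 CPM against 0.0758 to 0.598 CPM. The 6 pre-B stage markers summed to 4.74 to 46.1 CPM in the tumours and 391 to 1044 CPM in the IgM-positive lines, 4 erythroid markers to 1.97 to 4.64 CPM and 0 to 0.0996 CPM, and the mitochondrial share was 7.80% to 9.04% and 5.30% to 6.73%. Their part in the Mgat5 values was not tested. Of 81 other pathway genes 0 passed in limma. Over all genes 42 passed in limma, 0 in edgeR and 2100 in DESeq2.

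Lymphoma lines and sgBcl-2 MEFs, which both carry the cassette and a guide against Bcl-2 but are different cell types, differed in 6 of the 8 members. As 81.3% of all 14620 genes tested differed as well, that count is near the background. Of the 6, 1 was higher in the lines, against 36.3% of all genes, and 5 were lower, against 45.0%. The class II mannosidases moved in opposite directions. Man2a1 was at 355, 364, 343 and 315 CPM in the MEFs and at 94.0, 117 and 137.8 CPM (lowest, median and highest) in the lines, a log2 difference of -1.75 (SE 0.10, adjusted p = 3.48e-08). Man2a2 was at 105, 87.9, 116 and 122 CPM in the MEFs and at 189, 286 and 348 CPM in the lines, a log2 difference of 1.18 (SE 0.18, adjusted p = 0.000108). Neither gene overlapped between the groups, as did not 75.3% of all genes. Per kb, Man2a2 made up 71.4% ± 5.43 (SD, n = 6) of the pair in the lines and 25.1% ± 3.72 (n = 4) in these MEFs. It made up 71.3% and 72.7% in the tumours and 62.0% and 59.1% in preB-ALL. Among the 10 MEF libraries the second WT library, at 56.1%, was the exception to a range of 20.5% to 29.2%. The sum of the pair was 59.3 ± 8.37 CPM per kb in the lines and 65.7 ± 1.45 in the sgBcl-2 MEFs, and the ranges overlapped.

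Mgat1 was lower in the lines than in the sgBcl-2 MEFs, which had 177, 183, 183 and 184 CPM (log2 difference -1.44, SE 0.20, adjusted p = 5.30e-05). Man1c1 was lower as well, from 73.1, 73.0, 71.5 and 61.7 CPM in the MEFs (-1.88, SE 0.52, adjusted p = 0.00646). Man1a2 (-0.33, adjusted p = 0.0143) and Mgat2 (-0.46, adjusted p = 0.0351) were called lower, though both overlapped between the groups and the median over all genes was itself -0.27. Neither passed without scaling factors or in the fit of all 20 libraries (adjusted p = 0.108 and 0.113), and Mgat2 also missed the threshold in 6 of the 10 fits that left out a library. Mgat5 did not pass (-0.02, 95% interval -0.39 to 0.36). Man1a had a log2 difference of -3.28 (SE 1.84, adjusted p = 0.122) over the 6 lines and of -0.63 (adjusted p = 0.0200) in the IgM-positive lines only, an alternative chosen after seeing the data. The fit of all 20 libraries gave -3.29 over the 6 lines. It models the IgM classes as separate groups, so the spread between them is left out of its error. Its call of Man1a is not read.

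**Figure D4:**
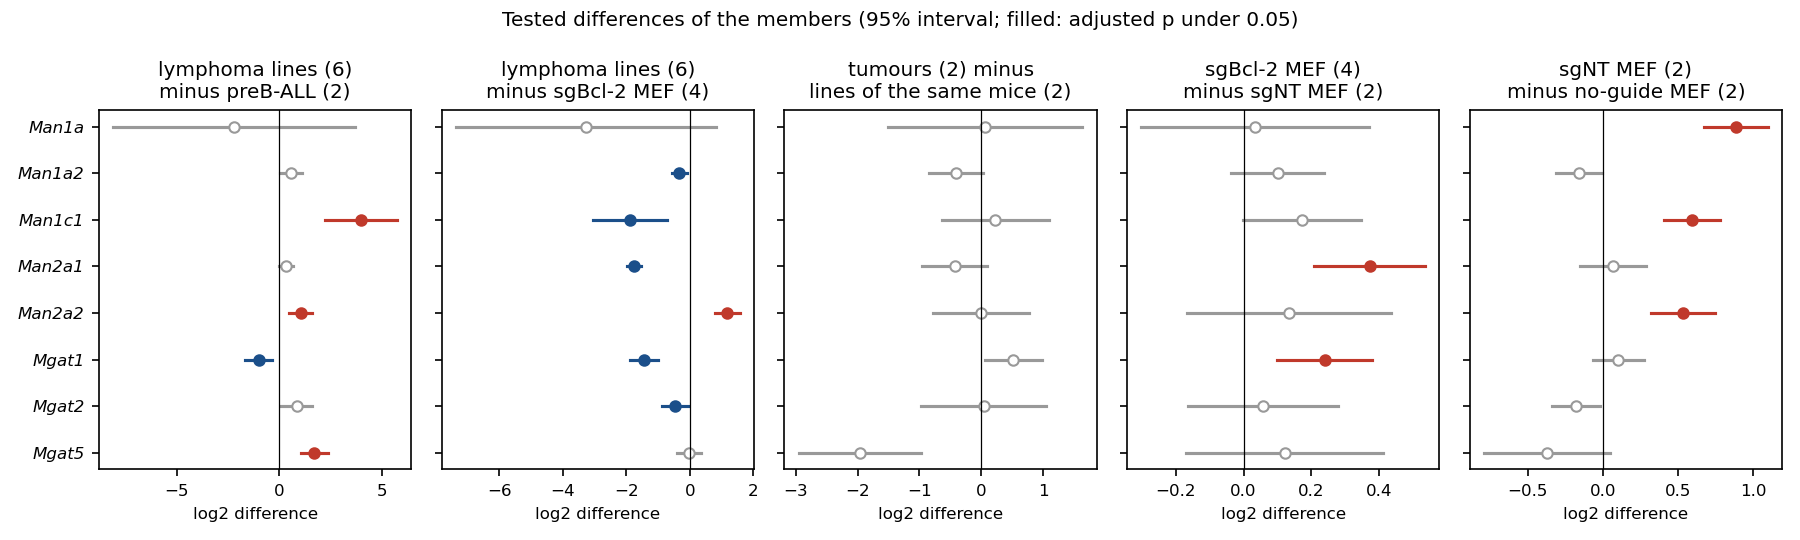
Log2 difference of each member in 5 tested comparisons, with its 95% interval from limma, on an axis that differs between panels; filled points passed an adjusted p of 0.05, red higher and blue lower. Man2a1 and Man2a2 move apart between lymphoma lines and MEFs, and the wide intervals of Man1a in the first 2 panels come with its near absence from 2 of the 6 lines.

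The Mgat4 pair, which starts a further branch, also differed in its shares between these 2 cell types, and the lines carried both of its members. Mgat4a was at 74.3 to 102 CPM in the lymphoma lines and at 1.63 to 2.79 CPM in the sgBcl-2 MEFs (log2 difference 5.08, adjusted p = 1.77e-10). Mgat4b was at 17.1 to 47.4 CPM in the lines and at 75.0 to 81.0 CPM in the MEFs (-1.68, adjusted p = 0.000105). Per kb, the share of Mgat4a in that pair was 34.1% to 64.5% in the lines, 75.3% and 62.1% in the tumours, 24.7% and 24.1% in preB-ALL and 0.671% to 1.77% in the 10 MEF libraries. Mgat3 was at 4.26 to 26.8 CPM in MEFs and at most 0.0431 CPM in the 6 lines and 2 tumours. Of 6 genes of UDP-N-acetylglucosamine supply, 5 were lower in the lines and 0 higher, with a median log2 difference of -1.81. Gfpt2, the second isoform of the entry enzyme, was at 67.2 to 90.5 CPM in the MEFs and at 0 to 0.0811 CPM in the lines. Of 12 oligosaccharyltransferase genes 9 were lower and 1 was higher. Over 83 pathway genes 44 were lower and 16 higher, with a median of -0.43 against -0.27 for all genes. Of all genes tested 45.0% were lower and 36.3% higher, beside which these counts are to be read.

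**Figure D5:**
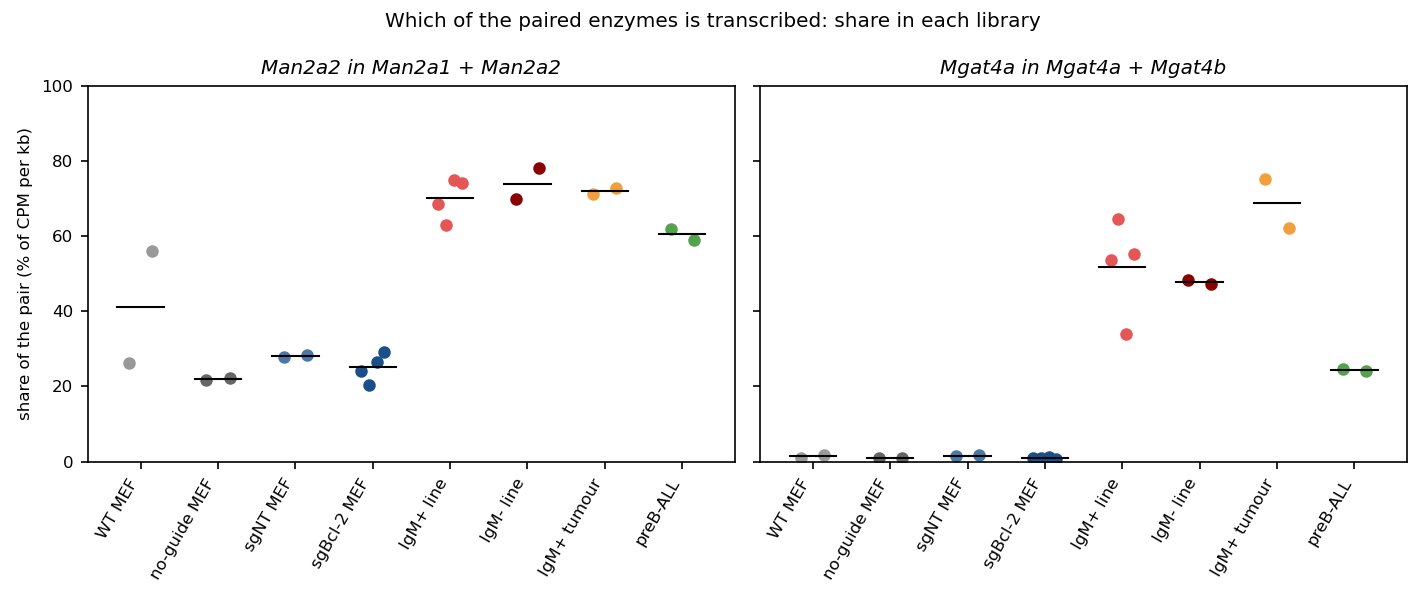
Share of Man2a2 in Man2a1 plus Man2a2 (left) and of Mgat4a in Mgat4a plus Mgat4b (right), in percent of CPM per kb, in each library by group; points are libraries and bars are group means. The 6 lymphoma lines lie between 63.0% and 78.2% on the left and between 34.1% and 64.5% on the right, and the sgBcl-2 MEFs between 20.5% and 29.2% and between 0.671% and 1.21%.

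In fibroblasts, the comparison of sgNT with no guide asks what transduction with a guide does to cells that carry the cassette. Man1a, Man1c1 and Man2a2 rose, 3 of 8 members against 41.1% of all 14655 genes tested, of which 20.3% rose and 20.9% fell. Man1a went from 43.8 and 37.6 CPM without a guide to 74.2 and 77.6 CPM with sgNT, a log2 difference of 0.88 (SE 0.09, adjusted p = 0.000307). Man1c1 went from 41.1 and 45.2 to 69.2 and 62.4 CPM (0.59, SE 0.08, adjusted p = 0.00107), and Man2a2 from 76.0 and 66.1 to 99.3 and 108.3 CPM (0.53, SE 0.09, adjusted p = 0.00319). These 3 genes did not overlap between the groups, nor did 5556 higher and 5142 lower genes of the 14655 tested. The same direction in both MEF lines follows from that and adds nothing to it. Marker sums also separated these groups without overlap, with fibroblast markers at 10408 to 11893 CPM without a guide and 14676 to 15036 CPM with sgNT, myeloid markers at 4.90 to 6.33 and 7.57 to 8.77 CPM, and B lineage markers at 12.4 to 13.6 and 19.3 to 25.3 CPM. Their part in the rise was not tested. Man1a2 (-0.16, adjusted p = 0.0908), Mgat2 (-0.18, adjusted p = 0.0699), Mgat5 (-0.37, adjusted p = 0.137), Mgat1 (0.10, adjusted p = 0.297) and Man2a1 (0.07, adjusted p = 0.602) did not pass. In the fit over all 20 libraries none of the 8 passed, although the log2 difference of Man1a was still 0.84 (adjusted p = 0.322). Mgat3 rose from 4.91 and 4.26 to 18.4 and 18.5 CPM (1.97, adjusted p = 5.45e-05), Gfpt2 rose by 1.21 (adjusted p = 0.000624), and Mgat4b fell by 0.77 on the log2 scale (adjusted p = 0.000143). Of 8 genes of the COG complex, which tethers vesicles that recycle Golgi enzymes, 4 rose and 0 fell. Over 84 pathway genes 19 rose and 9 fell.

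With sgBcl-2 in place of sgNT, Man2a1 and Mgat1 rose slightly, 2 of 8 members against 10.8% of 14676 genes, of which 6.61% rose and 4.24% fell. Man2a1 was at 355, 364, 343 and 315 CPM with sgBcl-2 and at 274 and 290.3 CPM with sgNT (log2 difference 0.37, SE 0.07, adjusted p = 0.0170). Mgat1 was at 177, 183, 183 and 184 CPM against 161 and 166 CPM (0.24, SE 0.06, adjusted p = 0.0426). Neither overlapped, as did not 44.0% of all genes, but Man2a1 was lost on leaving out either sgNT library, and Mgat1 in all 6 such fits. Man1a had a log2 difference of 0.03 (SE 0.15, adjusted p = 0.902), with 1 sgBcl-2 library at 97.0 CPM and the other 3 at 65.9 to 67.1 CPM. Of 83 other pathway genes 5 rose and 2 fell, among them B4galt1 (0.47, adjusted p = 0.00815), Gfpt2 (0.84, adjusted p = 0.0127) and the endomannosidase gene Manea (-0.65, adjusted p = 0.0127).

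Against WT MEFs, none of the 8 members passed in MEFs without a guide or with sgNT. By limma 0 of 14546 and 0 of 14560 genes passed in these comparisons (0% each), with 1081 and 589 genes at an unadjusted p under 0.05, while edgeR called 0 and 0 and DESeq2 188 and 88 genes. The spread between the WT libraries was wide. Man2a1 was at 292 CPM in the first and 89.2 CPM in the second, Man1a2 at 129 and 70.7 CPM, Mgat1 at 156 and 75.6 CPM, and Man1c1 at 88.8 and 29.0 CPM, while Man1a was at 57.6 and 57.0 CPM. The summed level of 12 fibroblast markers was 11583 CPM in the first WT library and 3455 CPM in the second. Without the first WT library the log2 difference of Man1c1 was 0.74 in MEFs without a guide and 1.31 in sgNT MEFs. Without the second it was -1.10 and -0.50, so Man1c1 changed direction with the WT library used. In these fits the lone WT library is assumed to vary like the other group, and their calls are not read.

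These comparisons share libraries. The 6 lines enter 3 of them, the sgBcl-2 and the no-guide MEFs 2 each and the sgNT MEFs 3, so their results are not independent of each other.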

How the data were processed

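Poly(A) RNA-seq of 20 mouse libraries was used. The authors aligned the reads with Rsubread to GRCm38, counted them per Entrez gene and deposited CPM values, each relative to the total of its library. The authors' later filter and voom step are not part of the table. All values (100%) are whole multiples of 1 read within 0.001, so reads were recovered. Symbols came from the RefSeq gene table of GRCm38.p6 (25242 of 25869 identifiers), exon lengths from GENCODE.

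For each comparison its own libraries were fitted with limma 3.58.1 (R 4.3.3, lmFit and eBayes with trend) on log2(TMM-scaled CPM + 0.1), after edgeR's filterByExpr (4.0.16) on the recovered reads. P-values were adjusted over all genes tested by Benjamini-Hochberg with a threshold of 0.05. Differences are on that scale and levels are deposited CPM. Scripts were tested on simulated data. Alternatives were edgeR's quasi-likelihood test, DESeq2 1.42.0 and limma-voom on recovered reads, other pseudocounts, filters and scalings, a fit of all 20 libraries, left-out libraries and a MEF line block. Figures were drawn with matplotlib 3.10.9 (Python 3.11.15).

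The members and lists were chosen with earlier results of these data known. Named genes are the members, up to 4 of each pathway list by adjusted p-value, neighbours within 1 Mb of the outer 5′ end of Man1a and the 5 genes most like it; genes named for the IgM contrast without overlap, and the isoenzyme shares, were chosen after their values were seen. No-guide, sgNT and sgBcl-2 MEFs of 1 number come from the same MEF line by their titles. The correlation of line differences was 0.326 between sgNT and sgBcl-2, -0.046 between no guide and sgNT, and -0.133 between no guide and sgBcl-2. Whether counting used the strand is not given in the sources used here, so overlapping genes such as Gm16998 and Man1a are uncertain. MEF libraries of a line are not stated to be separate cultures, and p-values measure the spread between these samples.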

Additional observations from a re-analysis of the deposited data

Results flagged for a closer look

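The following results have 1 library far from the rest of its group by Dixon's ratio, the gap to the nearest library divided by the range of the group. Of 36 such checks 2 passed the critical value, where chance gives about 1 in 20. In the 4 sgBcl-2 MEF libraries, Man1a was at 97.0 CPM in the third and at 65.9 to 67.1 CPM in the other 3 (ratio 0.960). In the same group, Man1c1 was at 61.7 CPM in the fourth and at 71.5 to 73.1 CPM in the other 3 (ratio 0.864). These 2 libraries are of the second MEF line. An interaction term of sgBcl-2 with the MEF line did not pass for any of the 8 members (for Man1a log2 0.16, SE 0.27, limma adjusted p = 0.9998).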

How the results depend on the processing

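Over 896 refitted values of single members in the 7 tested comparisons, 806 kept direction and side of the threshold. With the direction kept, 34 lost and 24 gained a call, and 32 changed sign, with or without a call. The causes were not tested. For Man1a between the IgM classes, the log2 difference of -7.84 became -8.66 with edgeR, -8.71 with DESeq2, -8.45 with limma-voom, -6.38 with a pseudocount of 0.5 and -5.55 with 1, and lay between -7.99 and -7.69 with a library left out. The count of members called moved as follows. In brackets are, where given, all genes called of those tested. Lines against preB-ALL gave 4 (6059 of 13961), 2 with tumours in place of lines (3668 of 14161) and 3 with the IgM-positive lines only (5098 of 13833). They gave 3 with limma-voom, 4 to 5 with a line left out, and 5 with all 20 libraries. The member gained with all 20, Man1a, rests on the IgM-negative lines, and its call is not read. Tumours against lines gave 0 (42 of 12719). They gave 1 (Mgat5) with DESeq2 (2100 of 12719), the fit of all 20 libraries (2497 of 16483) or all 4 IgM-positive lines (1418 of 12983). Lines against sgBcl-2 MEFs gave 6 (11893 of 14620), 4 without scaling factors (Man1a2 and Mgat2 lost) and 5 to 6 with a library left out. They gave 7 with the IgM-positive lines only (11820 of 14457, Man1a gained) and 5 with all 20 libraries (Man1a gained, Man1a2 and Mgat2 lost). The call of Man1a with all 20 libraries leaves the spread between the IgM classes out of its error and is not read. sgBcl-2 against sgNT gave 2 (1592 of 14676) and 0 with all 20 libraries (40 of 16483). It gave 1 with edgeR (1554 of 14676), without the filter (1448 of 20114), without scaling factors (1847 of 14676) or with an sgBcl-2 library left out. sgNT against no guide gave 3 (6029 of 14655) and 0 with all 20 libraries (424 of 16483). No guide against WT and sgNT against WT gave 0 in every fit that kept both WT libraries.

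With the MEF line as a replicate block, the count of members called stayed at 2 for sgBcl-2 against sgNT and 3 for sgNT against no guide. No member's call changed, and over all genes the count went from 1592 to 2148 and from 6029 to 5403. The WT lines share only a number with the others, so there the block is no pairing. The counts against WT stayed at 0 and 0.

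Without scaling factors, the log2 difference became -0.045 for Man2a1 in lines against preB-ALL, 0.037 for Man2a2 in tumours against lines, 0.16 for Mgat5 in lines against sgBcl-2 MEFs, and -0.055 for Man1a and -0.032 for Mgat2 in sgBcl-2 against sgNT. With all 20 libraries Man2a2 was 0.014 in tumours against lines, and with all 4 IgM-positive lines Mgat2 was -0.025 there. With the IgM-positive lines only, Man1a was 0.43 in lines against preB-ALL and Mgat5 was 0.17 in lines against sgBcl-2 MEFs, where edgeR gave 0.0055. With a library left out, the ranges that cross 0 in tumours against lines were -0.64 to 0.80 for Man1a, -0.12 to 0.55 for Man1c1, -0.35 to 0.31 for Man2a2 and -0.37 to 0.42 for Mgat2. In lines against sgBcl-2 MEFs Mgat5 ranged from -0.054 to 0.10. In sgBcl-2 against sgNT Man1a ranged from -0.10 to 0.10 and Mgat5 from -0.064 to 0.31, and in sgNT against no guide Man2a1 ranged from -0.054 to 0.19. In no guide against WT Man1c1 ranged from -1.10 to 0.74, Man2a1 from -0.19 to 1.75 and Mgat1 from -0.10 to 1.17. In sgNT against WT Man1c1 ranged from -0.50 to 1.31, Man2a1 from -0.12 to 1.79, Man2a2 from -0.028 to 0.15 and Mgat2 from -0.15 to 1.03.

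Groups of 2 limit every comparison but that of lines with sgBcl-2 MEFs, whose 4 libraries come from only 2 MEF lines, which its fit does not allow for. Depth of at least 12474885 reads leaves no member but Man1a near its floor of 3 reads.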

Other observations

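Some enzymes outside the Golgi branching route also differed between cell types. The lysosomal mannosidase gene Man2b2 averaged 37.9 CPM in the lymphoma lines and 154 CPM in the sgBcl-2 MEFs (log2 difference -2.24, SE 0.22), and Nagk, which salvages N-acetylglucosamine, averaged 2.64 and 59.0 CPM (-4.65, SE 0.21). Mogs, the glucosidase that starts trimming in the endoplasmic reticulum, went the other way, with means of 222 and 41.8 CPM (2.21, SE 0.13). Of the precursor assembly genes, Alg6 and Alg8, which add glucose to the precursor, averaged 23.2 and 45.9 CPM in the lines and 4.80 and 12.4 CPM in the MEFs. All of these passed limma's adjusted threshold, in a comparison where 81.3% of genes did.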
